A study of Mus musculus with 9 samples.

Results

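The genes described here encode 10 antagonists of Wnt signalling, 9 of them secreted and 1 anchored in the membrane. They were listed by mouse symbol (Wif1, Sfrp1, Sfrp2, Sfrp4, Sfrp5, Frzb, Dkk1, Dkk2, Dkk3 and Apcdd1) and matched to the Ensembl identifiers of the count files, where all 10 were found among 47069 gene rows. They were followed through 9 bulk RNA sequencing libraries: 3 primary prostate tumours, 3 proximal metastases taken from the epididymal fat and 3 distal metastases. The distal tissue is labelled as diaphragm in one field and as lung in another, so it is called distal throughout. All 9 libraries came from C57BL/6 mice of about 9 to 10 months with Ctnnb1pc(ex3)delta/+ among their engineered changes, so the primary tumours carried the same alleles as the metastases and all comparisons are between tissues with those alleles. Loss of exon 3 removes the phosphorylation sites that mark beta-catenin for destruction. The promoter that drove recombination in the prostate is not given in the sources used here. The labels state that the tissues were matched within 3 mice but not which libraries share a mouse, so the tests take the 9 libraries as independent of each other.

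Wnt proteins bind Frizzled receptors together with the co-receptors Lrp5 and Lrp6, which stops the destruction of beta-catenin and lets it act with TCF and LEF factors on target genes. The antagonists act upstream of that step. Wif1 and the secreted Frizzled-related proteins (Sfrp1, Sfrp2, Sfrp4, Sfrp5 and Frzb, also called Sfrp3) bind Wnt ligands outside the cell, Dkk1 and Dkk2 bind the Lrp co-receptors, and Apcdd1 is a membrane protein that binds Wnt and Lrp5. Dkk3 carries the Dickkopf name but is not an established Lrp-binding inhibitor. Several of these genes, among them Wif1, Apcdd1 and Dkk1, are known as targets of beta-catenin that feed back on the pathway, and stabilised beta-catenin lies downstream of the step that the antagonists block.

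Sequences in front of the RefSeq starts are shown for Wif1, the leading antagonist of the metastases per kilobase of exon. They are also shown for Sfrp2 and Dkk2, which were high in primary 2, and for Dkk1, which was close to absent. RefSeq promoter windows on GRCm38.p6, from 250 bases before to 50 bases after the transcription start, were matched for 6 of the 10 genes (Wif1, Sfrp2, Sfrp5, Frzb, Dkk1 and Dkk2). Apcdd1, Dkk3, Sfrp1 and Sfrp4 had no window. The stretches printed for Wif1, Sfrp2 and Dkk2 end before the gene start of both RefSeq and GENCODE release M21. They lie at chr10:121033754-121033959 on the plus strand for Wif1, at chr3:83766071-83766320 on the plus strand for Sfrp2 and at chr3:132085042-132085291 on the plus strand for Dkk2. Each is written 5′ to 3′ along the gene, with capitals for matches to TATAAA or its reverse complement TTTATA.
Wif1: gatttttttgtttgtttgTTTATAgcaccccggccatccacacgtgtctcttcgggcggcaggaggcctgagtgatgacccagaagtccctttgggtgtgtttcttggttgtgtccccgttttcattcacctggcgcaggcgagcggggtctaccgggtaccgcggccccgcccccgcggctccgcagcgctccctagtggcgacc
Sfrp2: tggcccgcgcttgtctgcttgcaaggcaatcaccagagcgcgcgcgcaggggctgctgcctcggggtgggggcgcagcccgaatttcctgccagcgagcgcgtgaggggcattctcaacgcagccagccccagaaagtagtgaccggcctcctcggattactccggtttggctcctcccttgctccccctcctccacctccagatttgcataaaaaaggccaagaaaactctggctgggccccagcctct
Dkk2: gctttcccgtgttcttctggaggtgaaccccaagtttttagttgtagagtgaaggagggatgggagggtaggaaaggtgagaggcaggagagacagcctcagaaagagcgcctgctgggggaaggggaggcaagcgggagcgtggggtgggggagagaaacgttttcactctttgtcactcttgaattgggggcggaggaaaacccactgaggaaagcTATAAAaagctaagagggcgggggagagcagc
For Dkk1 only the 26 bases from its first to its last TCF/LEF core match are shown, at chr19:30549588-30549613 on the minus strand, which is 117 to 92 bases before the RefSeq start. The gene starts 169 bases earlier in GENCODE. Capitals mark the core matches.
Dkk1: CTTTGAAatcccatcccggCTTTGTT
The TCF/LEF core was searched on both strands as the word CTTTGAA, the word CTTTGAT, the word CTTTGTA and the word CTTTGTT, none of which overlaps the TATA word in these windows. In the full windows, Dkk1 held 2 matches, and the Wif1, Sfrp2, Sfrp5, Frzb and Dkk2 windows held none. Among all 32851 windows of 300 bases in the same RefSeq table, 16.9% held at least 1. TATAAA, searched on both strands, stood 32 bases before the RefSeq start of Dkk2 and 54 bases before that of Dkk1. For Wif1 it stood on the opposite strand, 232 bases before the RefSeq start. The word occurred in 13.6% of all windows. By the GENCODE start, the TATAAA and TCF/LEF matches of Dkk1 lie inside the gene. The windows of Wif1 and Sfrp2 had 25 and 22 CG dinucleotides and a GC content of 63.0% and 66.0%, against medians of 7 and 52.7% over all windows. Those of Dkk1 and Dkk2 had 9 and 11. These are matches of letters in a short window and no site of binding was measured.

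Depth and the state of the libraries set what can be compared. Total counts ranged from 28334730 to 40408723, and values are CPM, counts scaled to each library's total after adjustment for its composition. The primary tumours differed from each other far more than the metastases did. Primary 1 lay within the range of the 6 metastases for 70.8% of the 18204 tested genes, primary 2 for 20.7% and primary 3 for 29.5%. The scaling factor of primary 2 was 0.795, against 0.994 to 1.05 in the other libraries. Fits without primary 1 are therefore given beside those of all 9 libraries. Other cell types also differed between the primary tumours. The 4 seminal vesicle markers summed to 7501 CPM in primary 3, and to 2.2 to 25.3 CPM in the other 8 libraries. The 3 basal epithelial markers summed to 24.6, 219 and 1719 CPM in primary 1, 2 and 3, and to 3.50 to 8.07 CPM in the metastases. The 6 luminal prostate markers summed to 1922, 7971 and 3058 CPM in the primary tumours and to 1370 to 1942 CPM in the metastases. Within that list the prostate secretory gene Pbsn was at 0.483, 211 and 11.8 CPM in primary 1, 2 and 3 and at 0 to 0.888 CPM in the metastases. Skeletal muscle markers summed to 643 and 890 CPM in distal 2 and distal 3 and to 7.25 CPM in distal 1. Lung epithelial markers summed to at most 2.86 CPM in any metastasis, with Sftpa1 at 0 in all 9 libraries. In bulk RNA, fewer cells that express a gene and less of its RNA per cell cannot be told apart.

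Wif1, Apcdd1 and Dkk3 were abundant in every metastasis and lower in every primary tumour. Wif1, the Wnt inhibitory factor (ENSMUSG00000020218, chromosome 10, 121033960 to 121100650), was measured at 4368, 704 and 1674 CPM in primary 1, 2 and 3. Its level was 5433, 5332 and 5295 CPM in proximal 1, 2 and 3 and 5130, 4930 and 4710 CPM in distal 1, 2 and 3. The metastases therefore lay within 1.15-fold of each other, primary 1 lay just under them, and primary 2 lay lowest, 7.30-fold below their mean. The log2 fold change was 1.25 (SE 0.56, edgeR adjusted p = 0.282) in proximal and 1.13 (SE 0.56, adjusted p = 0.320) in distal metastases against primary tumours. The primary tumours did not overlap with either site, and the difference did not pass the test.

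Apcdd1 (ENSMUSG00000071847, chromosome 18, 62922231 to 62961179) had nearly the same profile. It stood at 3200, 467 and 1198 CPM in primary 1, 2 and 3, at 4442, 4305 and 3757 CPM in proximal and at 4048, 4000 and 3763 CPM in distal 1, 2 and 3. Primary 2 was again the lowest library, 8.68-fold below the mean of the metastases, and primary 1 was 1.27-fold below it. The log2 fold change was 1.36 (SE 0.59, edgeR adjusted p = 0.271) in proximal and 1.28 (SE 0.58, adjusted p = 0.298) in distal metastases. Dkk3 (ENSMUSG00000030772, chromosome 7, 112116017 to 112159057, minus strand) reached 1610, 130 and 280 CPM in the primary tumours. The metastases held 1938, 1822 and 2533 CPM in proximal and 1907, 1838 and 1736 CPM in distal 1, 2 and 3. Its range was the widest of the 3 genes, with primary 2 at 15.1-fold and primary 3 at 7.01-fold below the mean of the metastases. On the log2 scale the estimate was 1.64 (SE 0.79, edgeR adjusted p = 0.298) in proximal and 1.44 (SE 0.79, adjusted p = 0.347) in distal metastases.

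Dkk2 showed the opposite pattern and was high in 2 of the 3 primary tumours. Dkk2 (ENSMUSG00000028031, chromosome 3, 132085292 to 132180304) was at 52.9, 1329 and 598 CPM in primary 1, 2 and 3. The metastases held 40.6, 54.0 and 54.8 CPM in proximal and 56.3, 48.0 and 63.5 CPM in distal 1, 2 and 3. Primary 1 lay inside the range of the metastases, and primary 2 and primary 3 lay 25.1-fold and 11.3-fold above their mean. The log2 fold change was -3.73 (SE 0.92, edgeR adjusted p = 0.145) in proximal and -3.56 (SE 0.92, adjusted p = 0.150) in distal metastases. Dkk1 (ENSMUSG00000024868, chromosome 19, 30545863 to 30549665, minus strand), the best known Lrp-binding antagonist, was close to absent. It had 0, 2 and 0 counts in the primary, 0, 3 and 2 in the proximal and 0, 1 and 0 in the distal libraries. It was the only member that did not pass the filter on low counts. All 9 libraries were at or under 3 counts, the number that a count of 0 allows (0.0715 to 0.117 CPM depending on the library, counting error only), so no fold is given.

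All 5 genes of the secreted Frizzled-related proteins had a lower mean in the metastases of each site than in the primary tumours. Sfrp2 (ENSMUSG00000027996, chromosome 3, 83766321 to 83774316, overlapped by the antisense gene Gm26771) was set apart by 1 library. It stood at 163, 2572 and 60.2 CPM in primary 1, 2 and 3, at 219, 310 and 229 CPM in proximal and at 196, 158 and 130 CPM in distal 1, 2 and 3. Primary 2 was 12.4-fold above and primary 3 was 3.44-fold below the mean of the metastases, so the primary tumours lay on either side of them. On the log2 scale edgeR gave a fold change of -1.88 (SE 1.1, adjusted p = 0.355) in proximal and -2.53 (SE 1.17, adjusted p = 0.303) in distal metastases. Without primary 2 it turned to 1.18 (adjusted p = 0.280) and 0.54 (adjusted p = 0.484), so the direction rested on that library. The counting strand is not given in the sources used here, and reads of Sfrp2 and Gm26771 cannot be told apart.

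Sfrp1 (ENSMUSG00000031548, chromosome 8, 23411502 to 23449632) was at 123, 29.2 and 227 CPM in primary 1, 2 and 3. Levels were 40.6, 42.4 and 16.3 CPM in proximal and 28.6, 23.8 and 14.6 CPM in distal 1, 2 and 3. Primary 1 and primary 3 lay above all metastases, and primary 2 lay among the proximal and just above the distal libraries. On the log2 scale Sfrp1 changed by -1.93 (SE 0.69, edgeR adjusted p = 0.225) in proximal and -2.50 (SE 0.71, adjusted p = 0.166) in distal metastases. Sfrp4 (ENSMUSG00000021319, chromosome 13, 19623104 to 19632994) followed the same order of primary tumours at a lower level, with 18.4, 1.45 and 47.0 CPM in primary 1, 2 and 3. The proximal libraries held 0.836, 1.66 and 0.588 CPM and the distal libraries 0.250, 0.405 and 1.90 CPM, which rest on 10 to 65 counts each. Its log2 fold change was -4.44 (SE 1.27, edgeR adjusted p = 0.171) in proximal and -4.73 (SE 1.30, adjusted p = 0.161) in distal metastases. The groups overlapped through primary 2.

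Sfrp5 (ENSMUSG00000018822, chromosome 19, 42197971 to 42202252, minus strand) had 1.18, 13.2 and 9.54 CPM in primary 1, 2 and 3. Levels were 0.392, 0.408 and 0.612 CPM in proximal and 0.60, 1.72 and 0.700 CPM in distal 1, 2 and 3, on 15 to 72 counts each. Like Dkk2 it was high in primary 2 and primary 3, and primary 1 lay inside the range of the metastases. The estimate of the log2 fold change was -4.07 (SE 0.88, edgeR adjusted p = 0.137) in proximal and -2.98 (SE 0.84, adjusted p = 0.165) in distal metastases. Frzb (ENSMUSG00000027004, chromosome 2, 80411970 to 80447625, minus strand) had 3.03, 4.73 and 20.9 CPM in primary 1, 2 and 3. Levels were 1.54, 1.23 and 1.05 CPM in proximal and 0.700, 2.86 and 1.77 CPM in distal 1, 2 and 3. It was the only member whose 3 primary tumours all lay above all 6 metastases. That separation was within counting error, with 113 counts in primary 1 and 120 counts in distal 2. Taken site by site, which is a looser criterion, 10.7% of all tested genes were lower without overlap in proximal and 10.4% in distal metastases. The share of all tested genes with every primary tumour above all 6 metastases was not computed. For Frzb edgeR gave -2.90 on the log2 scale (SE 0.82, adjusted p = 0.168) in proximal and -2.42 (SE 0.80, adjusted p = 0.210) in distal metastases.

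**Figure D1:**
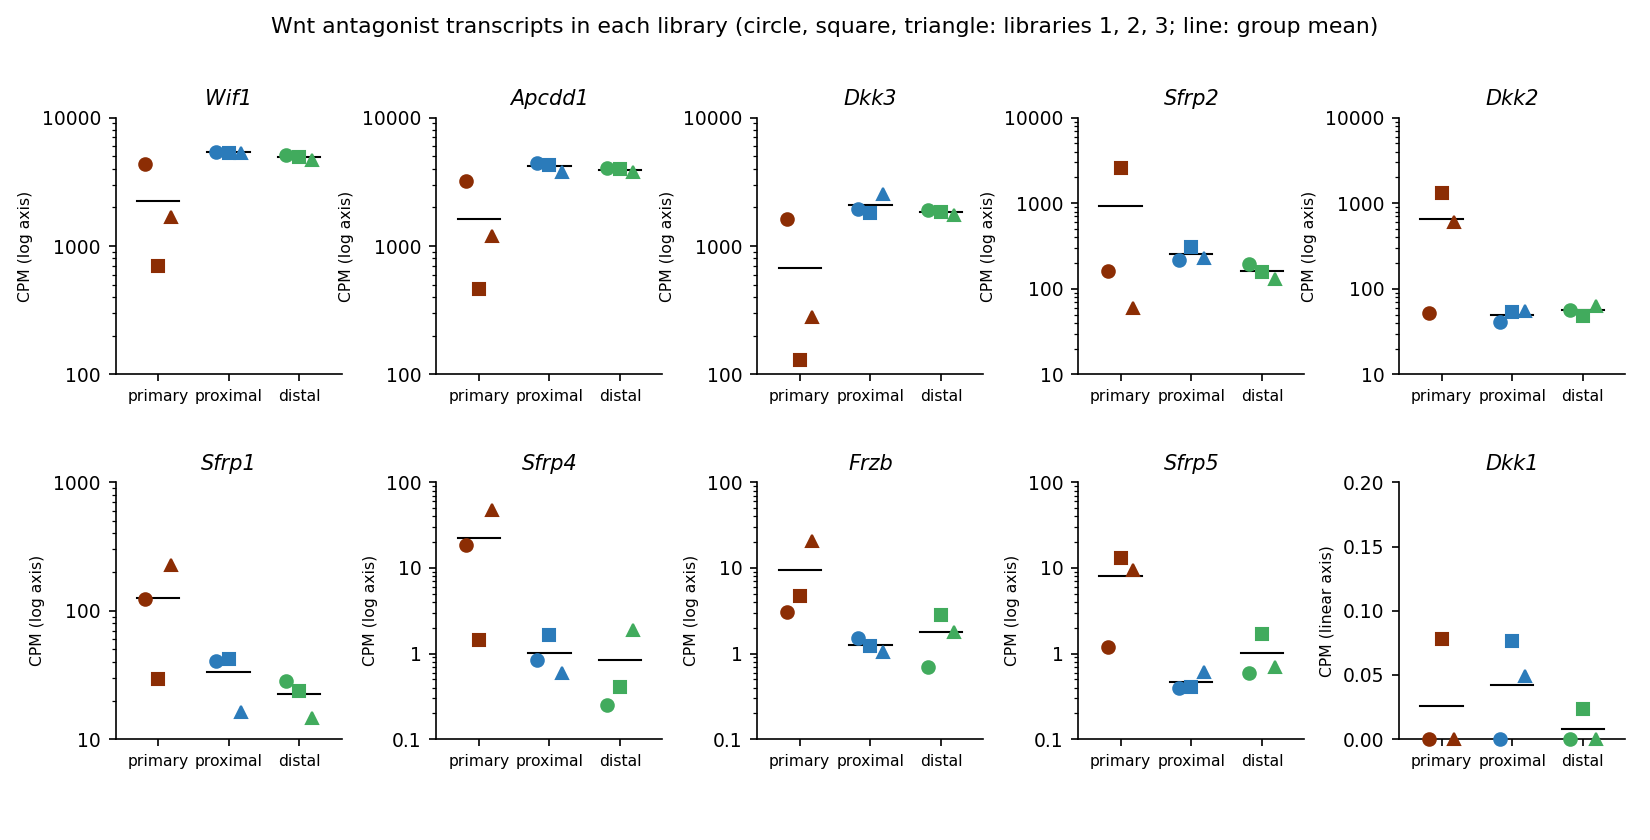
Each panel plots the CPM of 1 antagonist on a log axis (Dkk1 on a linear axis) for the primary, proximal and distal libraries, with circles, squares and triangles for libraries 1, 2 and 3 and a line at the group mean (n = 3 each). The 6 metastases of Wif1 sit between 4710 and 5433 CPM above all primary tumours, whereas Dkk2 is high in primary 2 (1329 CPM) and primary 3 (598 CPM) only.

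Across the 9 tested members, none passed an edgeR adjusted p below 0.05 in proximal against primary, where 0.0494% of all tested genes did. None passed in distal against primary, where the share was 0.0879%, and none in distal against proximal, where it was 0.0%. At an unadjusted p below 0.05, 6 of the 9 members (Sfrp1, Sfrp4, Sfrp5, Frzb, Dkk2 and Apcdd1) lay under that threshold in proximal against primary. Of all 18204 tested genes 3313 did. In distal against primary 5 of the 9 members (the same without Apcdd1) and 3165 of the 18204 genes did. In distal against proximal 0 members and 375 of the 18204 genes did. Both comparisons against primary share the 3 primary libraries, so their likeness is no repeat of a result. Wif1, Apcdd1 and Dkk3 were higher without overlap at both sites. Among all tested genes 8.68% were so in proximal and 8.4% in distal metastases, and 4.22% lay lower in all 3 primary tumours than in all 6 metastases. Sfrp5 and Frzb were lower without overlap in proximal metastases (10.7% of all tested genes), and Sfrp1 and Frzb in distal metastases (10.4%). The distal separations were within counting error, for Frzb as given above and for Sfrp1 as well. Primary 2 held 29.2 CPM of Sfrp1 (747 counts), and distal 1 held 28.6 CPM (1142 counts). Whatever the place of primary 1, primary 2 and primary 3 lay above all 6 metastases for Dkk2, Sfrp5 and Frzb (21.3% of all tested genes) and below them for Wif1, Apcdd1 and Dkk3 (26.3%).

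Leaving out primary 1, the primary tumour within the metastases' range for most genes, changed the calls for 7 of the 9 members. Primary 1 was singled out because of these same values, and leaving out the primary tumour nearest the metastases favours calls. The calls and adjusted p-values of that fit therefore describe these libraries and are no separate evidence of a difference. Without it, Wif1, Apcdd1 and Dkk3 were called higher, and Dkk2, Sfrp4, Sfrp5 and Frzb were called lower, at both sites. In that fit, 28.7% of all tested genes were called in proximal (13.8% higher and 14.9% lower) and 27.4% in distal metastases (13.2% higher and 14.1% lower). Calls were thus common among all genes in that fit. Dkk3 then changed by 3.37 on the log2 scale (SE 0.37, edgeR adjusted p = 0.00200) in proximal and 3.17 (SE 0.37, adjusted p = 0.00241) in distal metastases. Dkk2 had -4.25 (SE 0.35, edgeR adjusted p = 0.000965) and -4.09 (SE 0.34, adjusted p = 0.00101). Wif1 had 2.19 (SE 0.36, edgeR adjusted p = 0.00674) and 2.07 (SE 0.36, adjusted p = 0.00847), and Apcdd1 had 2.34 and 2.26. Sfrp5 had -4.56 and -3.47, Frzb -3.31 and -2.83, and Sfrp4 -4.54 and -4.84. Sfrp1 (edgeR adjusted p = 0.103 and 0.0547) and Sfrp2 (adjusted p = 0.145 and 0.0857) did not pass. Without primary 2, or without primary 3, no member was called at either site. Those fits moved several estimates towards 0. Without primary 2, Wif1 stood at 0.83 in proximal and 0.71 in distal metastases on the log2 scale, Dkk3 at 1.16 and 0.96 and Dkk2 at -2.72 and -2.55. Without primary 3, Frzb stood at -1.60 and -1.12, Sfrp1 at -1.20 and -1.77 and Sfrp4 at -3.27 and -3.56. Other tools that weigh the spread differently were also run on all 9 libraries. DESeq2 called Dkk2, Sfrp1, Sfrp4, Sfrp5 and Frzb lower at both sites. It called 8.16% of all tested genes in proximal (7.42% lower) and 7.93% in distal metastases (6.81% lower). With voom and library quality weights, 3 members were called higher and 5 lower at each site, all but Sfrp2. The weights were 0.175, 0.0843 and 1.06 for primary 1, 2 and 3, so the primary side of that fit rested mostly on primary 3. In the weighted fit 19.8% of all genes were called in proximal (8.12% higher, 11.7% lower) and 17.2% in distal metastases (6.52% higher, 10.7% lower).

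**Figure D2:**
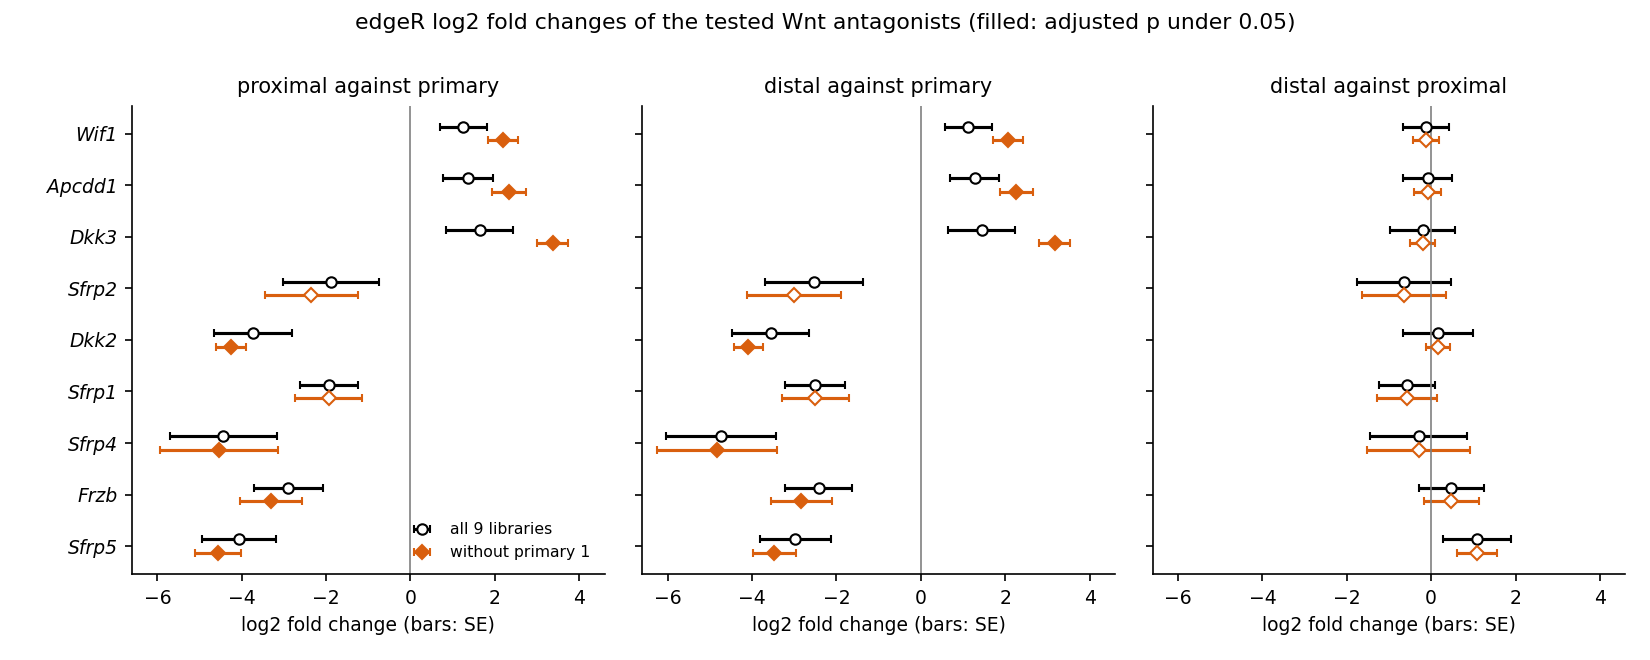
The log2 fold change of each tested antagonist (x axis) is drawn with its SE for proximal against primary, distal against primary and distal against proximal, with circles for the fit of all 9 libraries and diamonds for the fit without primary 1, filled where the edgeR adjusted p is under 0.05. No circle is filled, and 7 of the 9 diamonds are filled in each comparison against primary. Primary 1 was singled out because of its values in these data, which favours filled diamonds.

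The proximal and distal metastases were compared to find whether the antagonists differ between the sites. Every edgeR adjusted p was 1. Wif1 was lower in all 3 distal than in all 3 proximal libraries, by 1.09-fold (log2 fold change -0.12, SE 0.55), and Sfrp2 by 1.57-fold (-0.65, SE 1.11). Among all tested genes 3.6% were lower without overlap in distal metastases. Sfrp5 had the largest estimate, 1.09 (SE 0.81), with distal 2 at 1.72 CPM and distal 1 and distal 3 at 0.60 and 0.700 CPM. Dkk2 had 0.17 (SE 0.83), Dkk3 -0.20 (SE 0.77) and Apcdd1 -0.08 (SE 0.58). These SEs come from 1 dispersion per gene for all groups and so carry the spread of the primary tumours. Over the 9 members the median SD of log2(CPM + 1) was 1.5 among primary, 0.238 among proximal and 0.298 among distal libraries, against 0.437, 0.1247 and 0.122 over all tested genes. Wif1 varied least in proximal (SD 0.0192 on that scale) and Apcdd1 least in distal libraries (0.0565, with Wif1 at 0.0617), and Sfrp1 varied most in proximal (0.751) and Sfrp4 most in distal libraries (0.658).

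Levels of different genes were set side by side per kilobase of exon, as TPM, which scales counts per kilobase to the same total in every library, computed from the counts and the union of each gene's annotated exons. By this measure Wif1 was among the 5 highest genes in each of the 6 metastases, at 6936 to 8209 TPM (rank 3 to 5). It ranked 6 in primary 1 (6821 TPM), 176 in primary 2 (646 TPM) and 40 in primary 3 (2322 TPM). Dkk3 followed in the metastases with 1847 to 2768 TPM and Apcdd1 with 1044 to 1264 TPM. Sfrp2 held 215 to 539 TPM there, Dkk2 40.2 to 61.3 TPM and Sfrp1 11.97 to 36.3 TPM. Sfrp4, Sfrp5 and Frzb overlapped each other at 0.218 to 3.43 TPM, so their order is not resolved. These places depend on the length used, most for Apcdd1, because its annotated exons span 12884 bases together and its coding transcripts 1842 to 10879 bases. With the median coding transcript of each gene (1888 bases for Apcdd1) it held 3109 to 3659 TPM in the metastases, above Dkk3 at 810 to 1178 TPM and beside Wif1 at 3298 to 3823 TPM. Wif1 then ranked 9 to 13 in the metastases, 14 in primary 1, 427 in primary 2 and 91 in primary 3, and so left the highest 5.

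The mixture of antagonists differed between libraries as well as their sum. The 10 genes summed to 10120 to 12310 TPM in the metastases and to 10050, 4304 and 3805 TPM in primary 1, 2 and 3. Wif1 made up 65.1% to 68.5% of that sum in the metastases and 67.9% in primary 1. In primary 2 it made up 15%, and Sfrp2 made up 61.8% and Dkk2 18.5%. In primary 3 Wif1 made up 61.0% and Dkk2 14.3%. With median coding transcript lengths Wif1 made up 44.2% to 45.1% in the metastases, with Apcdd1 beside it at 37.9% to 42.9%, and Sfrp2 still led in primary 2 (56.8%). On that scale the sums were 7370 to 8642 TPM in the metastases and 6975, 2320 and 2677 TPM in primary 1, 2 and 3, so the order of primary 2 and primary 3 changed. The primary tumours with low sums thus had different leading antagonists, Sfrp2 in one and Wif1 in the other.

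**Figure D3:**
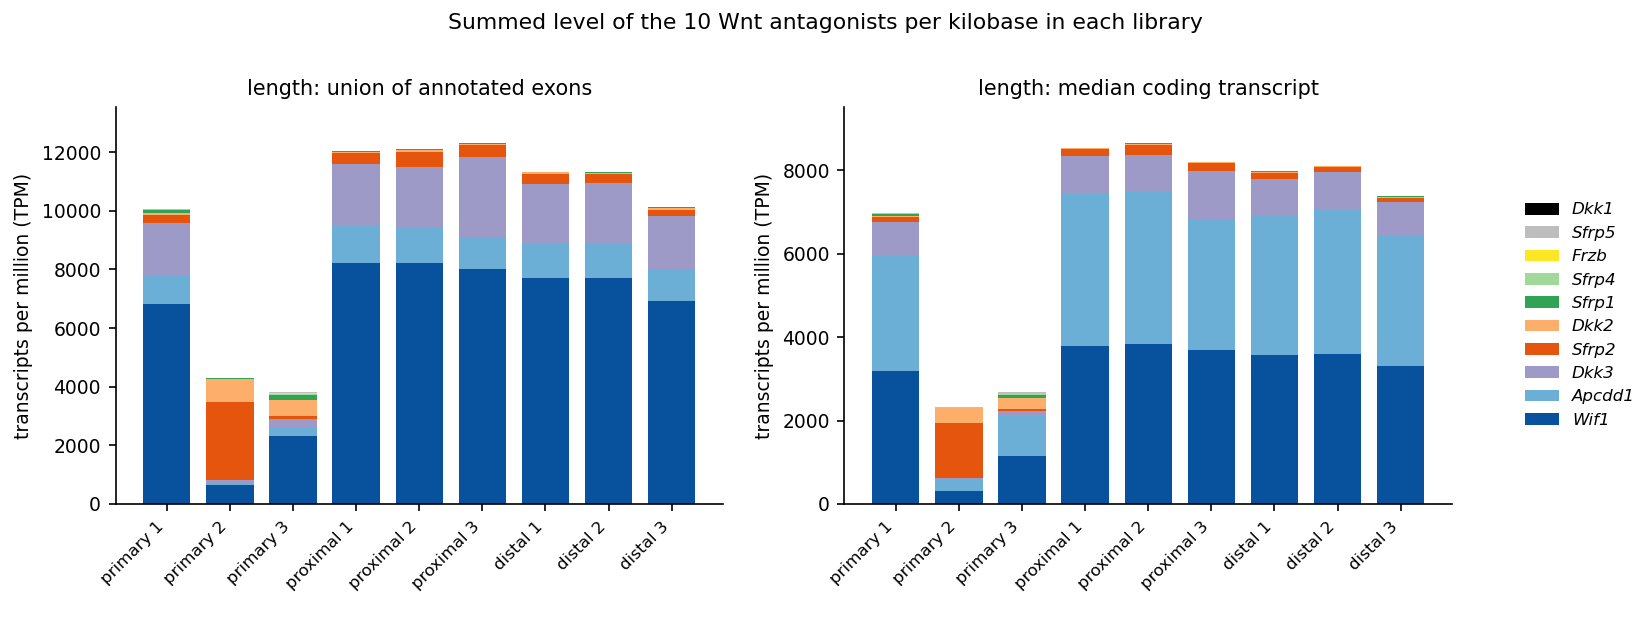
Stacked bars give the summed TPM of the 10 antagonists in each of the 9 libraries, with gene lengths from the union of annotated exons on the left and from the median coding transcript on the right. Wif1 leads in every library except primary 2 on the left, where Sfrp2 takes 61.8% of the sum, and Apcdd1 takes a larger share on the right.

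Pairs of antagonists were compared by the root mean square (RMS) difference of their log2(CPM + 1) profiles over the 9 libraries, each centred on its own mean. Wif1 and Apcdd1 were the closest pair (0.10), and Dkk3 came next, at 0.43 from Apcdd1 and 0.48 from Wif1. Sfrp5 lay 0.64 from Dkk2 and 0.67 from Frzb, and Sfrp1 lay 0.83 from Sfrp4. Dkk2 and Dkk3 were the farthest pair of all (3.12), although they bear 1 family name. The same measure was taken against 13464 other genes with a mean of at least 1 CPM. The 3 nearest to Wif1 were Cers6 (0.09), Lef1 (0.09) and Cers5 (0.10). Lef1, which encodes a DNA-binding partner of beta-catenin, stood at 55.0, 7.15 and 21.02 CPM in primary 1, 2 and 3 and at 54.4 to 68.2 CPM in the metastases. Cers5 and Cers6 encode ceramide synthases. Nearest to Apcdd1 were Map6 (0.11), Npl (0.12) and Plppr2 (0.13). Nearest to Dkk3 were Foxa2 (0.11), a forkhead transcription factor, Dact2 (0.13), a Dishevelled-binding protein gene, and Lhpp (0.13). Foxa2 stood at 133, 10.2 and 24.8 CPM in the primary tumours and at 132 to 174 CPM in the metastases. Nearest to Dkk2 were Golga7b (0.19), Ttc9 (0.23) and Klrg2 (0.27), and nearest to Sfrp5 were Coro2a (0.23), Ica1 (0.24) and Lad1 (0.26). Frzb lay nearest to Ston2 (0.28), Cdsn (0.29) and Mkx (0.30), and Sfrp2 to Ildr2 (0.29). For Sfrp1 and Sfrp4 the nearest genes, Inava (0.46) and Nxpe2 (0.51), were farther away. All profiles share the same 9 libraries and 3 spread primary tumours, so these distances are descriptions. Over all candidates the median distance was 0.99 from Wif1 and 1.76 from Dkk2.

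**Figure D4:**
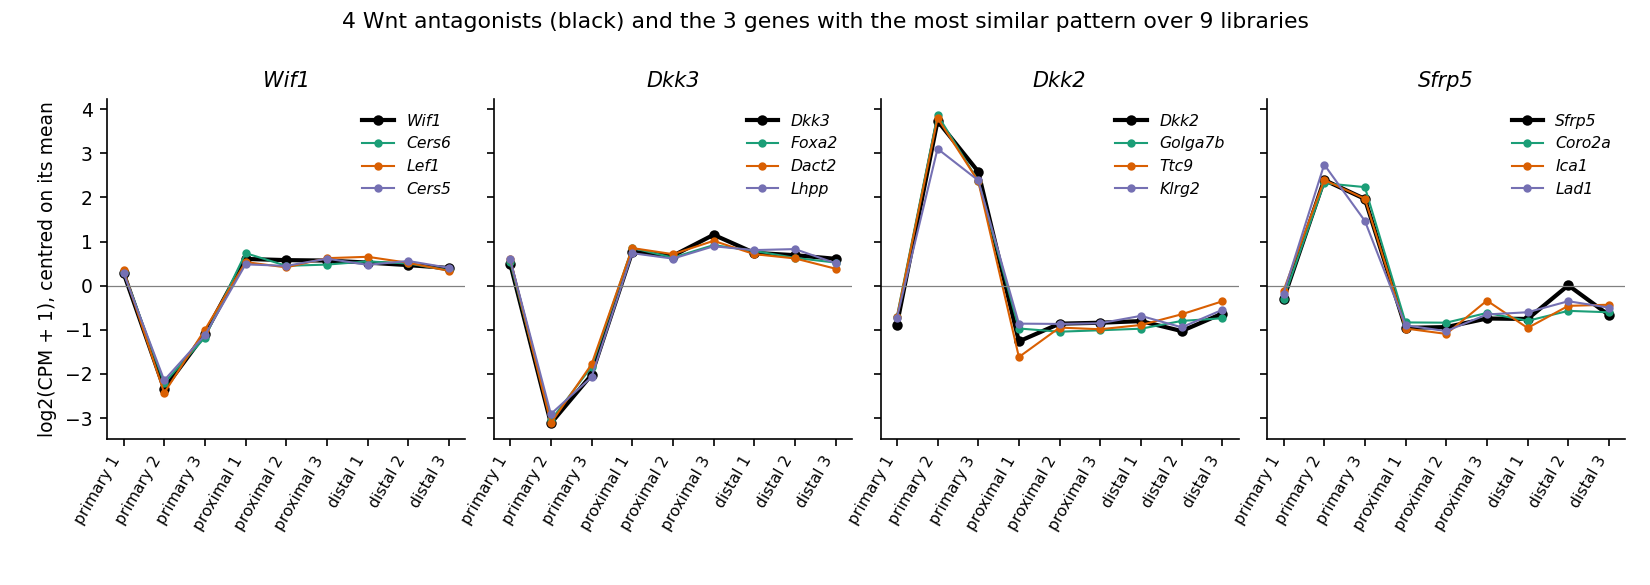
Lines give log2(CPM + 1), centred on each gene's mean over the 9 libraries, for Wif1, Dkk3, Dkk2 and Sfrp5 (black) and the 3 genes nearest to each. The Wif1 and Dkk3 groups dip in primary 2 and primary 3, and the Dkk2 and Sfrp5 groups peak there, with primary 1 near the metastases in all 4 panels.

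Markers of other cell types moved with some members, and their part in these values was not tested. The 12 fibroblast and stromal markers, all detected, summed to 3103, 1138 and 1945 CPM in primary 1, 2 and 3, to 1315 to 2784 CPM in proximal and to 1667 to 2193 CPM in distal libraries. The 6 smooth muscle markers summed to 378, 58.5 and 203 CPM in the primary tumours and to 54.2 to 347 CPM in the metastases. Of them Myh11 was at 82.5, 8.71 and 25.8 CPM in primary 1, 2 and 3 and at 2.25 to 11.4 CPM in the metastases. Des reached 123 and 93.3 CPM in distal 2 and distal 3, the libraries with skeletal muscle markers. All 6 had a negative log2 fold change in proximal metastases, and 3 a negative and 3 a positive one in distal metastases. Sfrp1 and Sfrp4, which stromal cells are known to express, were lowest among the primary tumours in primary 2, where the fibroblast and smooth muscle sums were also lowest. Sfrp4 was at 18.4 CPM in primary 1, whose fibroblast sum was 3103 CPM, and at most 1.90 CPM in distal metastases, whose sums reached 2193 CPM. Col1a1, Col1a2 and Col3a1 led that sum in primary 1, at 735, 695 and 1016 CPM. Pi16 of the same list was at 69.3, 24.0 and 86.8 CPM in primary 1, 2 and 3. In the metastases it held 2.98 to 19.0 CPM. Of the 12 genes, 8 had a negative log2 fold change in proximal and 9 in distal metastases, and 4 and 3 a positive one. The genes named from the fibroblast and smooth muscle lists were chosen after their values were seen. Frzb, Sfrp1 and Sfrp4 were highest in primary 3, the library with the seminal vesicle and basal markers given above. Sfrp2 and Dkk2 were highest in primary 2, which had the highest luminal sum (7971 CPM) and a mesothelial list of 5265 CPM, against at most 1142 CPM elsewhere. Of that list Krt19, which simple epithelia also express, made up 5174 CPM. The 5 hepatocyte markers, nearly all of whose sum was Alb, ordered the primary tumours as Wif1, Apcdd1 and Dkk3 did, with 4039, 119.5 and 652 CPM in primary 1, 2 and 3 and 5235 to 7573 CPM in the metastases. The other 4 genes of that list each stayed at or below 49.8 CPM. The 7 adipocyte markers summed to 357, 56.7 and 108 CPM in the primary tumours, also in that order, to 130 to 482 CPM in proximal and to 32.8 to 377 CPM in distal libraries. Ctnnb1, an altered gene of the model, ordered the primary tumours as Wif1 did, with 4399, 937 and 1771 CPM in primary 1, 2 and 3 and 3553 to 4961 CPM in the metastases.

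The rest of the pathway was read from lists of other extracellular or membrane inhibitors, ligands, receptors and targets. No gene of any of the 4 lists passed an edgeR adjusted p below 0.05 in any of the 3 comparisons. Of the 15 other inhibitors 11 were tested, with a median log2 fold change of 0.54 in proximal and 0.43 in distal metastases against primary tumours, where all tested genes had -0.05 and -0.03. Igfbp4, an insulin-like growth factor binding protein that also inhibits Wnt signalling, had the lowest adjusted p among them (-1.88, SE 0.33, edgeR adjusted p = 0.0958 in distal metastases). Rnf43 and Znrf3, membrane ubiquitin ligases that remove Frizzled, stood at 452, 256 and 252 CPM and at 387, 216 and 245 CPM in primary 1, 2 and 3, and at 409 to 499 and 348 to 480 CPM in the metastases. Without primary 1, 12 of the inhibitors were tested. Of these 5 were called higher and 1 lower in proximal metastases, and 4 higher and 2 lower in distal metastases. The 1 called lower in proximal metastases was Dkkl1, which was not among the 11. It had 0.161, 6.79 and 20.1 CPM in primary 1, 2 and 3 and lay below primary 1 in all 6 metastases, so it passed the filter through primary 2 and primary 3 and had to differ. Dkkl1 is named after its values were seen. Kremen1, a Dickkopf receptor, was among those called higher at both sites (0.79 and 0.77). Those counts stand against 13.8% higher and 14.9% lower of all genes in proximal, and 13.2% and 14.1% in distal metastases.

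Of the 19 Wnt ligands 15 were tested, with medians of -0.19 in proximal and 0.05 in distal metastases. Wnt7b stood at 6.58, 64.5 and 54.9 CPM in primary 1, 2 and 3 and at 7.76 to 19.7 CPM in the metastases, the order of primary tumours seen for Dkk2. Wnt6 (380, 84.9 and 148 CPM, against 366 to 514 CPM) and Wnt5a (390, 61.1 and 197 CPM, against 352 to 499 CPM) followed the order seen for Wif1. Wnt4 did not, with 27.15, 51.6 and 127 CPM in primary 1, 2 and 3 and 28.3 to 46.8 CPM in the metastases. Without primary 1, 3 ligands were called higher and 2 lower (Wnt7b and Wnt4) at each site. In that fit 28.7% of all tested genes were called in proximal and 27.4% in distal metastases. Of the 22 receptors and R-spondins 20 were tested, with medians of 0.20 and -0.07. The receptor gene Fzd5 had the lowest adjusted p (-2.19, SE 0.33, edgeR adjusted p = 0.0714 in proximal, and -2.24, SE 0.34, adjusted p = 0.0702 in distal metastases). It stood at 10.9, 16.4 and 13.4 CPM in the primary tumours, primary 1 included, and at 2.18 to 3.98 CPM in the metastases. Without primary 1, 3 receptors were called higher and 5 lower in proximal, and 2 higher and 5 lower in distal metastases. The same shares of all tested genes, 28.7% and 27.4%, stand beside these counts.

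All 12 feedback and nuclear target genes were tested, with medians of 0.56 and 0.52. Axin2, a scaffold of the destruction complex and a common readout of the pathway, stood at 761, 360 and 542 CPM in primary 1, 2 and 3 and at 761 to 913 CPM in the metastases. Its range was much narrower than that of Wif1. Nkd1, a feedback inhibitor inside the cell, stood at 1766, 1674 and 812 CPM in the primary tumours and at 1624 to 1880 CPM in the metastases, so primary 2 was not low for it. Sp5 stood at 116, 103 and 62.5 CPM in primary 1, 2 and 3 and at 137 to 164 CPM in the metastases. Of the 12 genes, 9 had a positive and 3 a negative log2 fold change at each site. Sox9 was 1 of the negative ones, with 35.1, 282 and 136 CPM in the primary tumours and 24.0 to 47.5 CPM in the metastases. Its log2 fold change in proximal metastases was -2.21 (SE 0.66, edgeR adjusted p = 0.179). Cd44 was another, with 183, 471 and 362.5 CPM in the primary tumours and 164 to 245 CPM in the metastases. Without primary 1, 6 targets were called higher and 2 lower at each site, with Lef1 at 2.16 and 2.14 and Axin2 at 0.97 and 0.87. Among all tested genes 13.8% were called higher and 14.9% lower in proximal, and 13.2% and 14.1% in distal metastases.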

How the data were processed

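Total RNA of 9 frozen tissues was sequenced. The deposited counts were whole numbers of reads per Ensembl gene, not normalized, in 1 file per library. Per the submitters' processing notes, the authors used the build GRCm38.p3 and the tools HTSeq 0.6.0, DESeq2 1.14.1, R 3.2.3, Bowtie2 2.2.6.0, FastQC 0.11.4 and TopHat2 2.1.0. How strand was treated, which annotation release served and how reads were filtered is not given in the sources used here, so counts of overlapping genes are uncertain. Of 47069 identifiers, 46488 matched a symbol and exon length in GENCODE release M21 (GRCm38). Libraries were grouped by tissue label, and their numbers only name them. No library repeated another: a chi-square between 2 libraries was at least 25.4 per gene, where sampling noise gives about 1.

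Genes passing edgeR's filterByExpr (minimum count 10, minimum total 15) were tested with edgeR 4.0.16's quasi-likelihood F-test in R 4.3.3 with TMM scaling, all 9 libraries in 1 fit and 6 residual degrees of freedom. This left 18204 genes, and p-values were adjusted over all of them by Benjamini-Hochberg, with calls at adjusted p below 0.05. The SE was taken from the log2 fold change and the square root of its F statistic. A single dispersion per gene served all groups. CPM and TPM were computed here. The script was tested on simulated data. Alternatives were DESeq2 1.42.0 (median-ratio size factors), the same size factors or library totals in edgeR, limma 3.58.1's voom with and without quality weights, 2 other filters, the compared groups alone and leaving out each library. The median coding transcript length was added after seeing the data. The members, lists and tests were chosen with earlier results of these data known. All members were described, as were the 3 genes nearest to a member's profile (Gm, Rik and clone names left out), up to 4 genes per list by lowest adjusted p, and Ctnnb1, Axin2 and Nkd1. A further gene of the rule is not reported here. Lef1 was among the 3 genes nearest to Wif1. Of the nearest genes, levels are given only for Lef1 and Foxa2, a choice that the rule does not set. RefSeq promoter windows were searched on both strands.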

Additional observations from a re-analysis of the deposited data

How the results depend on the processing

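No paired analysis was possible because the labels do not say which libraries share a mouse. The log2 fold changes of Wif1, Apcdd1, Dkk3, Dkk2, Sfrp1, Sfrp4, Sfrp5 and Frzb against primary kept their direction under all 17 alternatives run at each site. Sfrp2 did not: with voom quality weights it stood at 1.49 in proximal and 0.89 in distal metastases, and with 1 library left out it ranged from -2.43 to 1.18 and from -3.08 to 0.54, positive only without primary 2. The weights were 0.175, 0.0843 and 1.1 for primary 1, 2 and 3 and 1.45 to 2.92 for the metastases. Between the metastatic sites, Sfrp4 (-1.64 to 0.23 with 1 library left out) turned to 0.23 without proximal 2, 0.15 without distal 1 and 0.05 without distal 2, and Frzb (-0.05 to 0.86) to -0.05 without distal 2. Members called numbered 5 at each site with DESeq2 (Dkk2, Sfrp1, Sfrp4, Sfrp5 and Frzb, where 8.16% and 7.93% of all genes were called, and no adjusted p was given for Dkk3) and 8 at each site with quality weights (all tested members except Sfrp2, against 19.8% and 17.2%). They numbered 0 to 7 when 1 library was left out, with 7 only without primary 1, and 0 between the sites. Over all genes, the 9 calls in proximal against primary became 15 with median-ratio size factors, 1486 with DESeq2, 1 with voom, 3607 with quality weights, 26 with no filter, 23 with a stricter one (at least 1 CPM in 3 libraries) and 0 with the compared groups alone. The 16 calls in distal against primary became 10 with library totals, 1444 with DESeq2, 1 with voom, 3126 with quality weights and 0 with the compared groups alone. With 1 library left out they ranged from 0 to 5447 and from 0 to 5203, highest without primary 1. They were 22 and 26 without primary 2, 2 and 0 without primary 3, 0 and 35 without distal 1, 1 and 0 without distal 3, and 0 at both sites without any other library. Between the sites the count of 0 became 85 with DESeq2, and 0 to 38 with 1 library left out (38 without distal 1). The cause of these changes was not tested. Depth limits Dkk1, at 3 counts or fewer in every library, and Sfrp4, Sfrp5 and Frzb in the metastases.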
